A study of Mus musculus with 15 samples.

Results

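The miRNAs of liver allografts were compared between day 14 and day 100 after transplantation. Members were taken by sample title: 3 arrays of grafts removed on day 14 and 3 arrays of grafts removed on day 100, which are 6 of the 15 arrays of the series. On each array all 567 mouse miRNAs were read. In both groups a B10.BR (H2-Kk) liver had been placed in a B10.D2 (H2-Kd) recipient, the labels list male mice, and per the study's methods no immunosuppressive agent was given. Both groups share the strain pair and the operation and differ in the day of removal. Each array holds RNA of 1 whole graft, so donor liver cells and the recipient's blood cells in the tissue were measured together, and each day rests on 3 mice. The other 9 arrays hold syngeneic grafts of day 5 and allografts of days 5 and 8, 3 arrays each. The labels of the syngeneic grafts name the same allogeneic strain pair, so these were identified by title.

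The days differ in more than time. The day 14 arrays lay on the first of 2 slides and the day 100 arrays on the second. Syngeneic replicates 1 and 2 were on the first slide and syngeneic replicate 3 on the second, and these were the only group spread over both. One library stood apart. The software's estimate of additive noise was 13.1 intensity units for replicate 1 of day 100, where the others had 2.67 to 3.66. Its log2 signals correlated with its 2 replicates at 0.87 (Pearson's r over miRNAs), while the other pair of day 100 correlated at 0.99 and the pairs of day 14 at 0.99. Detected miRNAs numbered 98 to 115 per array on day 14 and 60 to 90 on day 100. The tissue label was checked with marker miRNAs: miR-122, the defining miRNA of hepatocytes, had the strongest or next strongest signal on all 6 arrays, and 7 markers of muscle, brain and pancreas (miR-1, miR-133a, miR-206, miR-124, miR-9, miR-216a and miR-217) were detected on 0 of the 6.

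MicroRNAs are short RNAs cut from hairpin transcripts. Loaded into an Argonaute protein, they lower the stability and translation of mRNAs that pair with them, mostly through the seed, bases 2 to 8 of the mature strand, so that miRNAs with one seed share many targets. Some mark a cell type: in liver, miR-122 and miR-192 are abundant in hepatocytes, while miR-142 and miR-223 belong to blood-derived cells. In a graft, the miRNA profile therefore reads the parenchyma and the infiltrate together.

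The sequences below, from RefSeq with the build GRCm38.p6, are those on which the comparison turns, with the seed in capitals. RefSeq entries were matched for 74 of the 103 miRNAs tested. The first set is shown because its members, miRNAs of leukocytes, include the 2 largest differences with the slide in the fit. No seed is shared among these 6.
miR-342-3p: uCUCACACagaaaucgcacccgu
miR-223: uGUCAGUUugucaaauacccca
miR-155: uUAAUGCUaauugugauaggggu
miR-142-5p: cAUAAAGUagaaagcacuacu
miR-142-3p: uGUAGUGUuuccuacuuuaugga
miR-146a: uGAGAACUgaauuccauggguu

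The next 4 share the AAAGUGC seed of the miR-17 family and all were higher on day 14.
miR-106b: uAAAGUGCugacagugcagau
miR-20b: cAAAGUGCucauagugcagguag
miR-93: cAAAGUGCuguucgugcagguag
miR-20a: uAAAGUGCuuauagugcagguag

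The 6 members of the miR-15/16 family share the AGCAGCA seed and are shown because they split, with 4 higher and 2 lower on day 14.
miR-322: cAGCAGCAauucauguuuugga
miR-15b: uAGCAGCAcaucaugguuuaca
miR-16: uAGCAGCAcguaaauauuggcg
miR-15a: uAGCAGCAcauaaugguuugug
miR-195: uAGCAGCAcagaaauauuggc
miR-497: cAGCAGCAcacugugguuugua

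The let-7 family shares the GAGGUAG seed. Its 5 members that were lower on day 14 are followed by let-7i, which was not.
let-7c: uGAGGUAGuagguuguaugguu
let-7b: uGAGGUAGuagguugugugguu
let-7f: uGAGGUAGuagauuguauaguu
let-7a: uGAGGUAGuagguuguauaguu
let-7g: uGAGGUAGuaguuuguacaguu
let-7i: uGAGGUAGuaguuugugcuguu

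The last set holds miRNAs of other seeds that were lower on day 14. Of these, miR-148a, miR-192 and miR-194 are abundant in hepatocytes, and the dimmer miR-365 was listed with them.
miR-365: uAAUGCCCcuaaaaauccuuau
miR-148a: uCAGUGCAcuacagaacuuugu
miR-192: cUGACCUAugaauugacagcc
miR-194: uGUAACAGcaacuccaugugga
miR-99a: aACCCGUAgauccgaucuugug
miR-125b-5p: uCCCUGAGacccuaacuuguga

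Of the 567 mouse miRNAs, 103 were tested, namely those detected on each array of some group of the series. A signal is given as log2 of the intensity over the 75th percentile of its array, so that 0 is that percentile, and signals below a floor of -5.21 were set to it. With limma, 53 of the 103 (51.5%) differed between the days at an adjusted p under 0.05 (Benjamini-Hochberg). Of these, 34 (33.0%) were higher and 19 (18.4%) lower on day 14. A miRNA that passed is called below, and a difference is always day 14 minus day 100 on the log2 scale. The median difference over the 103 was 0.10 and the median standard error 0.24. Of the called miRNAs, 18 were higher and 5 lower by at least 2-fold. The 3 arrays of day 14 all lay above those of day 100 for 41 miRNAs (39.8%) and all below for 26 (25.2%), 67 (65.0%) in all. The exact two-sided permutation p of a 3 against 3 comparison is at least 0.1, so single miRNAs were judged by limma alone.

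Many rises began near the detection limit. On all 6 arrays 53 miRNAs were detected, and of these 10 were higher and 17 lower on day 14. A further 44 were detected on each array of day 14 but not on each of day 100, 1 (miR-497) the other way round, and 5 on all arrays of neither day. Of the 44, 14 were detected on no array of day 100. From these 14, miR-296-5p, miR-500, miR-350, miR-19a and miR-689 were not called. The 464 untested miRNAs included 441 detected on none of the 6 arrays and 23 detected on 1 to 3 of them. Fewer cells of a type and less RNA per cell cannot be told apart in these whole grafts.

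The slide moves with the days and changed the count of calls. With the slide as a fixed block (the blocked fit), which rests on the syngeneic arrays that bridge the slides, 20 miRNAs (19.4%) were called, all higher on day 14. No miRNA was called lower (0 by limma, 1 at an unadjusted p under 0.05), although 18 of the 19 lower ones kept their sign. Of the 34 higher ones, 33 kept theirs. The block also moved the median difference of all 103 miRNAs from 0.10 to 0.40 and the median standard error from 0.24 to 0.39. For a miRNA at the floor on all 3 syngeneic arrays, such as miR-203, the slide effect in that fit is 0 by construction. When median scaling was joined to the block, 4 miRNAs were called higher and 1 lower. The 4 were 3 leukocyte miRNAs and 1 of the miR-15/16 family. Of the 20, 17 were also called without the block, and miR-185, miR-23a and let-7i were called with it alone. Without replicate 1 of day 100, 42 miRNAs (40.8%) were called, 23 (22.3%) higher and 19 (18.4%) lower, and 39 of these were among the 53. Without replicate 1 of day 14, 39 were called, 21 higher and 18 lower. The split also moved with the scaling, from 34 higher and 19 lower to 15 and 18 with the percentile taken over all mouse miRNAs, 21 and 18 with quantile normalization, and 32 and 2 with no scaling.

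**Figure D1:**
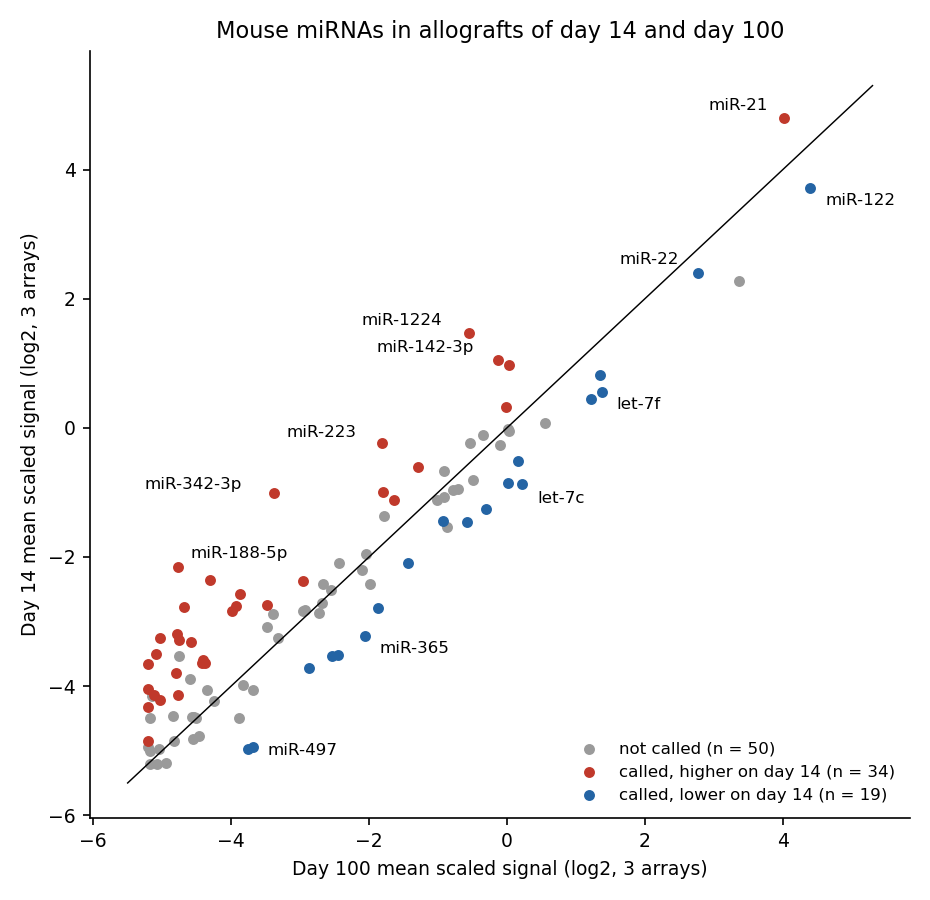
Mean scaled signal on day 14 (y axis, log2) against day 100 (x axis, log2), 1 point per tested miRNA, each mean over 3 arrays, with the line of equality. The 34 called higher on day 14 lie above the line, many of them at low signal, and the 19 called lower lie below it, over the whole range of signal.

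**Figure D2:**
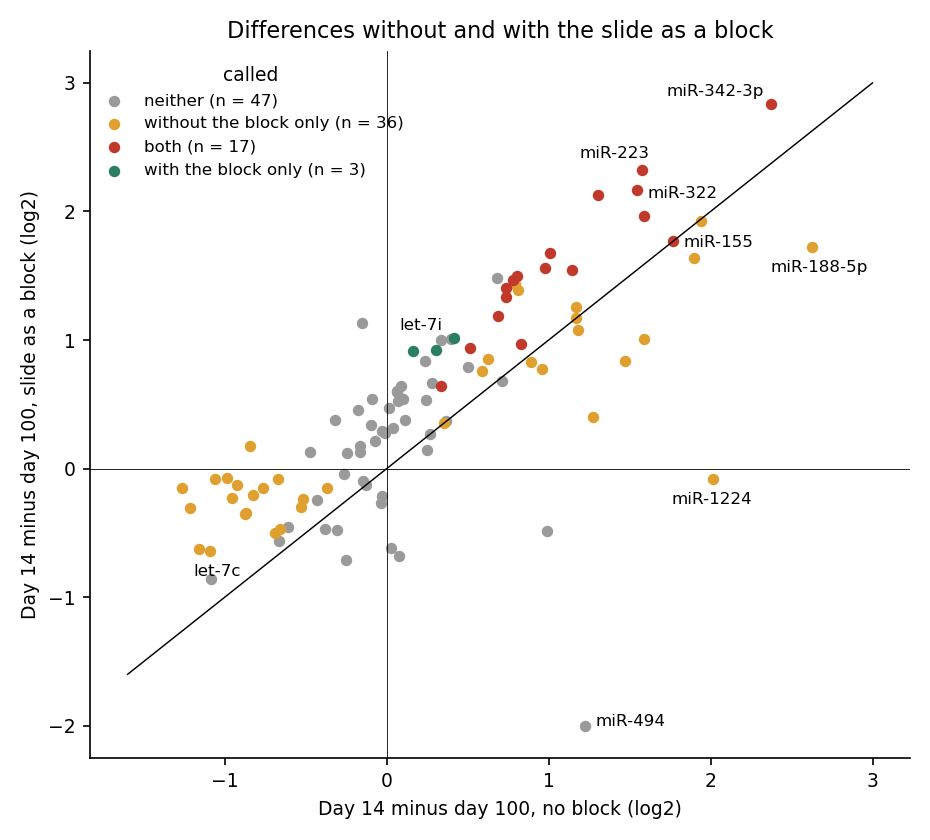
Difference between day 14 and day 100 without the slide in the fit (x axis, log2) and with it as a block (y axis, log2), 1 point per tested miRNA, with the line of equality. Colors show which fit called a miRNA: 17 in both, 36 without the block alone, 3 with the block alone and 47 in neither.

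The leukocyte miRNAs that entered the test were higher on day 14. Of 9 listed, 6 were tested and 6 were called higher, with a median difference of 1.67 against 0.10 over all tested miRNAs. Of all 103 tested, 33.0% were called higher. Of the 6, miR-142-5p, miR-155 and miR-342-3p were detected on each array of day 14 but not on each of day 100. With the test limited to miRNAs detected on all 6 arrays, 3 remained and 3 were called higher, with a median of 1.18. Summed over the 9, the scaled linear signal was 3.31 to 4.50 on day 14 and 1.25 to 1.67 on day 100. miR-150, a miRNA of mature lymphocytes, was detected on 0 of the 6 arrays, and miR-146b and miR-181a on 2 arrays of day 14 and 0 of day 100.

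miR-342-3p, a leukocyte miRNA whose locus on chromosome 12 lies within the span of Evl, stood at -0.78, -1.27 and -0.99 on day 14 and at -3.56, -3.46 and -3.13 on day 100. All 3 grafts of day 14 were far above all of day 100, and the gap between the days was many times the spread within a day. It was 5.18-fold higher on day 14, a difference of 2.37 (standard error 0.20, limma adjusted p = 3.00e-06). The blocked difference was 2.83, again called.

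miR-223, a miRNA of granulocytes and monocytes, stood at -0.0032, -0.31 and -0.38 on day 14 and at -2.02, -1.58 and -1.83 on day 100. The groups did not overlap and the difference was 1.58 (standard error 0.24, adjusted p = 0.000525), or 2.99-fold. It was 2.32 in the blocked fit. miR-223 and miR-342-3p were called under every alternative that could be computed for them, 37 and 35.

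miR-155, which rises in activated lymphocytes and macrophages, stood at -2.69, -3.17 and -3.92 on day 14. On day 100 it was at the floor in replicate 1 and at -4.94 in both others, and it was detected on 1 of the 3 arrays. All grafts of day 14 were above all of day 100, with the widest spread among those of day 14. The difference was 1.77 (standard error 0.27, adjusted p = 0.000525), and 1.77 in the blocked fit as well. The unchanged value means that the syngeneic arrays gave a slide effect near 0 for it. It does not show that the slide left the arrays of the 2 days unaffected.

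Both arms of the miR-142 hairpin, a hairpin of all blood cell lineages at chr11:87756867-87756925, were higher. miR-142-5p stood at -2.47, -2.28 and -2.33 on day 14 and at -5.21, -3.79 and -3.90 on day 100, where the lowest value was the floor in the noisier replicate 1. The difference was 1.94 (standard error 0.46, adjusted p = 0.0053). The brighter arm miR-142-3p, at 1.05, 1.44 and 0.65 on day 14 and -0.34, -0.0025 and -0.06 on day 100, differed by 1.18 (standard error 0.43, adjusted p = 0.0372). For neither arm did the days overlap. The blocked differences were 1.92 (standard error 0.87) and 1.08 (standard error 0.82), and neither was called.

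miR-146a, induced by NF-kB signaling, had the smallest difference of the list. It stood at -2.14, -2.36 and -2.63 on day 14 and at -3.27, -2.91 and -2.70 on day 100, with the dimmest graft of day 14 next to the brightest of day 100. The difference was 0.59 (standard error 0.21, adjusted p = 0.0372), and 0.76 (standard error 0.39, not called) in the blocked fit. Without replicate 1 of day 100, 4 of the 6 leukocyte miRNAs were called, the exceptions being miR-142-3p and miR-146a at 1.08 and 0.43. In the blocked fit, miR-342-3p, miR-223 and miR-155 were called. With the percentile over all mouse miRNAs 4 of the 6 were called higher, with quantile normalization or no scaling 5 and with median scaling 6. With normexp background correction, and with no filter on detection, 3 were.

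**Figure D3:**
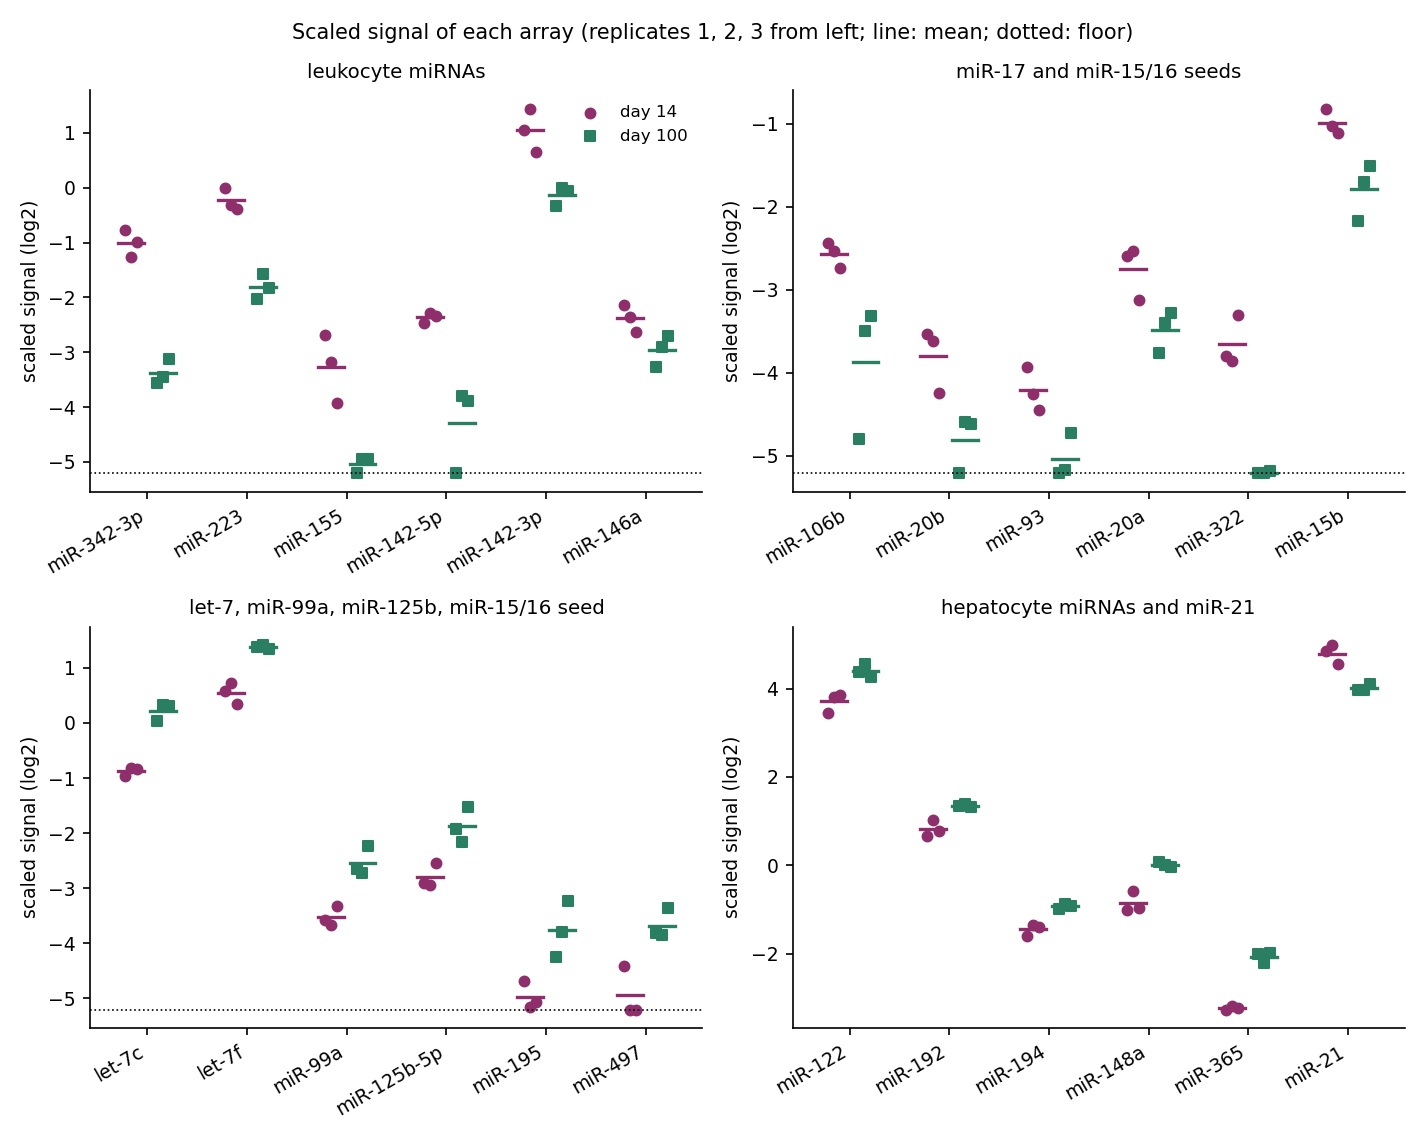
Scaled signal of each array (y axis, log2) for 24 miRNAs, circles for day 14, squares for day 100, replicates 1 to 3 from left to right, lines for the mean of 3 arrays and a dotted line for the floor. In the 2 upper panels the circles lie above the squares, in the lower left one under them, and in the lower right one the 5 hepatocyte miRNAs lie lower and miR-21 higher on day 14.

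Members of the miR-17 family and its clusters gave 5 calls, all higher on day 14. These miRNAs favor the cell cycle and are abundant in dividing lymphocytes. Of 11 listed, 8 were tested and 5 called higher, with a median difference of 0.73. Over all 103 tested miRNAs the median difference was 0.10, and 33.0% were called higher. These 5 were detected on each array of day 14 but not on each of day 100. Among miRNAs detected on all 6 arrays, 2 members remained, miR-19b and miR-92a, with a median of 0.12 and 0 calls. In the blocked fit these 5 were called again, but none was when median scaling was joined to the block. miR-17, miR-18a and miR-106a were detected on none of the 6 arrays. With no scaling or with median scaling 6 were called higher, with quantile normalization 2 and with the percentile over all mouse miRNAs 1. Under none of these scalings was a member called lower. With normexp the median was 0.01 and none was called, and with no filter on detection 1 was. Leaving out replicate 1 of day 14 or replicate 1 of day 100 left 3 calls.

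The cluster at chr5:138165332-138165807, within the span of Mcm7, a subunit of the replicative helicase, gave miR-106b, miR-93 and miR-25, and all were called. miR-106b stood at -2.43, -2.53 and -2.74 on day 14 and at -4.80, -3.50 and -3.32 on day 100, so that the days did not overlap and the noisier replicate 1 was the lowest. The difference was 1.30 (standard error 0.33, adjusted p = 0.00645) and it was 0.84, still called, without that replicate. miR-93 differed by 0.83 (standard error 0.17) and miR-25, which carries the other seed AUUGCAC, by 0.73 (standard error 0.23). Without replicate 1 of day 100 miR-25 fell to 0.49 and was not called.

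From the cluster at chr14:115043721-115044496, the miR-17 cluster, miR-20a was called higher. Its signal was -2.59, -2.53 and -3.12 on day 14 and -3.76, -3.40 and -3.28 on day 100, again without overlap, and the difference was 0.73 (standard error 0.22, adjusted p = 0.0131). It too was not called without replicate 1 of day 100, at 0.59. The passenger arm miR-17* was called at 0.35 (standard error 0.12), detected on all grafts of day 14 and none of day 100. Its cluster mates miR-19a, miR-19b and miR-92a, at 0.68, 0.34 and -0.09, were not called, so not every member of the cluster was called. In the related cluster at chrX:52741854-52742181, miR-20b differed by 1.01 (standard error 0.25, adjusted p = 0.00599). miR-19b and miR-92a have a copy in both clusters, and an array cannot assign their signal to either.

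The miR-15/16 family split by locus. These miRNAs restrain cell division through cyclins and also target BCL2. All 6 members were tested and called, 4 higher and 2 lower on day 14, with a median difference of 0.42. Over all 103 tested miRNAs, 33.0% were called higher and 18.4% lower. The 2 stayed lower under each other scaling, while the count of higher ones was 1 with the percentile over all mouse miRNAs, 2 with quantile normalization or no scaling and 4 with median scaling. miR-322, whose locus lies in the lncRNA gene C430049B03Rik on chromosome X, stood at -3.79, -3.86 and -3.31 on day 14 and was not detected on day 100, where it lay at or near the floor. It was at least 1.85-fold higher on day 14, and the difference on the floored scale was 1.54 (standard error 0.19, adjusted p = 0.000107). Blocked for slide, it was 2.17.

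miR-15b and miR-16 lie together at chr3:69009775-69009939 within the span of Smc4, a condensin subunit, and miR-16 has a further copy beside miR-15a at chr14:61631936-61632096 within Dleu2. miR-15b stood at -0.82, -1.03 and -1.11 on day 14 and at -2.17, -1.70 and -1.51 on day 100, and the days did not overlap. The difference was 0.80 (standard error 0.25, adjusted p = 0.0164), followed by miR-16 at 0.51 (standard error 0.16) and miR-15a at 0.33 (standard error 0.13). In the blocked fit all 3 were called, miR-16 at 0.94 and miR-15a at 0.64. When median scaling was joined to the block, 1 member of the whole family was called. Without replicate 1 of day 100 they were 0.62, 0.42 and 0.33, none called, and none of the 3 was called without replicate 1 of day 14. With no filter on detection miR-322 was the 1 call of the family.

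miR-195 and miR-497, of the same seed but from a separate locus at chr11:70234730-70235082, went the other way. miR-195 stood at -4.69, -5.16 and -5.07 on day 14 and at -4.25, -3.81 and -3.23 on day 100. miR-497 stood at -4.41 and at the floor in the other two grafts on day 14, and at -3.82, -3.86 and -3.37 on day 100. Both were dim, and for both every graft of day 14 was below every graft of day 100. The differences were -1.21 (standard error 0.28, adjusted p = 0.00518) and -1.26 (standard error 0.29, adjusted p = 0.00518). Blocked for slide, they shrank to -0.31 and -0.15, not called. On the syngeneic arrays miR-497 was at -4.86 and -5.21 on the first slide and at -3.93 on the second.

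**Figure D4:**
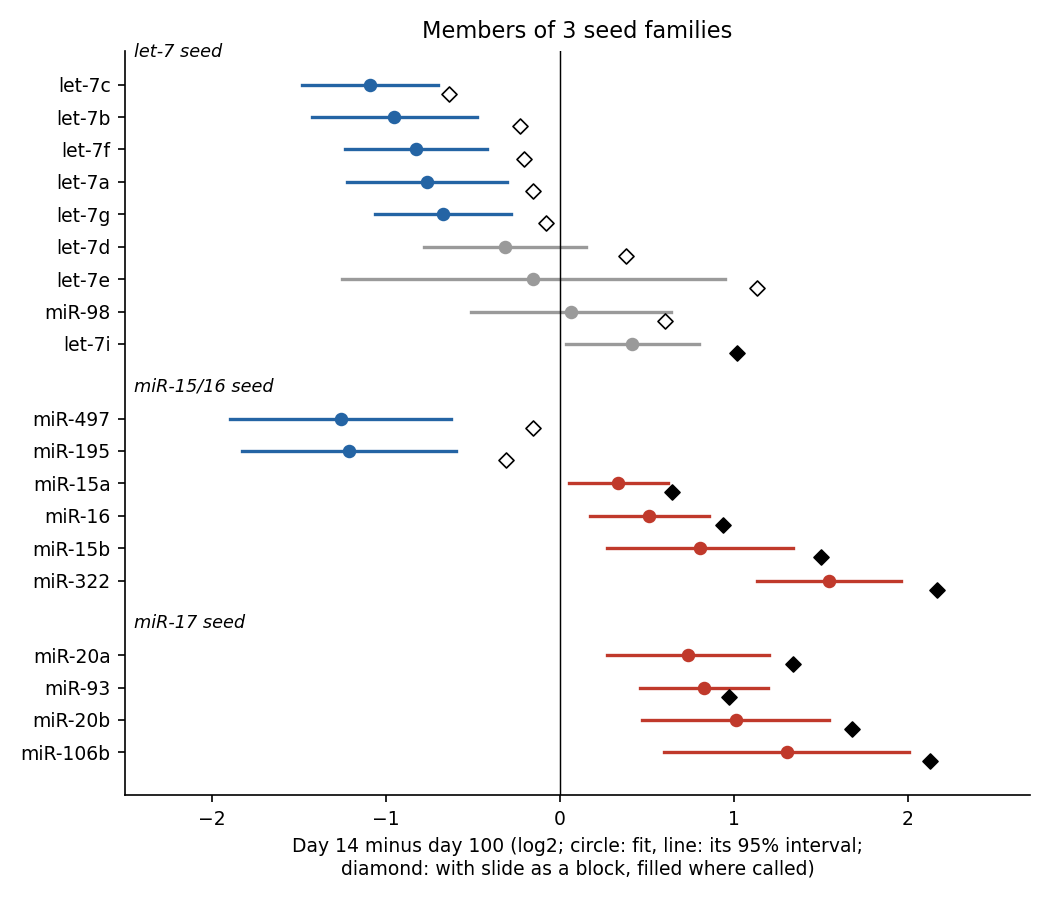
Differences between day 14 and day 100 (x axis, log2) for the tested members of 3 seed families, with 95% intervals of the fit (lines) and the difference in the blocked fit (diamonds, filled where called). Members of the miR-17 seed all lie to the right of 0, those of the miR-15/16 seed on both sides, and the let-7 members spread from -1.09 for let-7c to 0.42 for let-7i.

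Most let-7 miRNAs were lower on day 14. The let-7 family is associated with differentiated, resting cells. All 9 listed members were tested, 5 were called lower and the median difference was -0.67. Over all 103 tested miRNAs, 18.4% were called lower and the median difference was 0.10. The 5 stayed called with the percentile over all mouse miRNAs, with quantile normalization and with median scaling, which also called let-7i higher, and none was called with no scaling. With no filter on detection 3 were. The blocked median was -0.08, none was called lower and let-7i was called higher at 1.02.

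let-7c, which lies beside miR-99a at chr16:77598940-77599693 and beside let-7b at chr15:85706616-85707346, stood at -0.96, -0.81 and -0.84 on day 14 and at 0.03, 0.33 and 0.31 on day 100. The days were clearly apart. It was 2.13-fold lower on day 14, a difference of -1.09 (standard error 0.18, adjusted p = 0.000731), and -0.64 (standard error 0.29) in the blocked fit. It was the single lower miRNA called when the block was joined to median scaling, at -1.04. The syngeneic arrays gave -0.36 and -0.81 on the first slide and -0.14 on the second.

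let-7b, at -1.38, -1.22 and -1.18 on day 14 and -0.49, -0.22 and -0.21 on day 100, differed by -0.95 (standard error 0.22, adjusted p = 0.00504). let-7f and let-7a, which share a cluster on chromosome 13, were brighter. let-7f has a further copy beside miR-98 on chromosome X, and an array cannot assign its signal to either locus. let-7f and let-7a differed by -0.83 (standard error 0.19) and -0.76 (standard error 0.21), and let-7g by -0.67 (standard error 0.18). For each of the 5 the days did not overlap. let-7d, at -0.32 (standard error 0.22), lies in the cluster of let-7f and let-7a and was not called. Nor were let-7e at -0.15, miR-98 at 0.06 and let-7i at 0.42 (standard error 0.18). let-7e was at the floor in replicate 1 of day 100, and without that replicate its difference was -0.84, not called.

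miR-99a, beside let-7c on chromosome 16, and miR-125b-5p, with a locus further along that chromosome, were the 2 tested members of a list of 5 from the miR-99 and miR-125 families, and both were called lower. Neither was with no scaling, with no filter on detection or with the slide as a block. miR-99a stood at -3.59, -3.67 and -3.33 on day 14 and at -2.65, -2.73 and -2.24 on day 100, a difference of -0.99 (standard error 0.24, adjusted p = 0.00599). miR-125b-5p, at -2.91, -2.94 and -2.55 and at -1.93, -2.16 and -1.53, differed by -0.92 (standard error 0.24, adjusted p = 0.00745). In both the days did not overlap, and in the blocked fit both differences lay within 1 standard error of 0, at -0.07 and -0.13. The other 3 listed, miR-99b, miR-100 and miR-125a-5p, did not enter the test. Over all 103 tested miRNAs, 18.4% were called lower.

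Most hepatocyte miRNAs that were tested were lower on day 14. Of 9 listed, 8 were tested, all detected on all 6 arrays, and 5 were called lower, with a median difference of -0.60. Over all 103 tested miRNAs, 18.4% were called lower and the median was 0.10. Of the 53 miRNAs detected on all 6 arrays, 17 were called lower and the median was -0.16. Summed over the list the scaled signal was 14.0 to 18.2 on day 14 and 24.5 to 29.1 on day 100. The count was 4 or 3 with the percentile over all mouse miRNAs or quantile normalization, 5 with median scaling and 0 with no scaling, and the median was below 0 in each. Blocked for slide, none was called and the median was -0.32.

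miR-122, which supports cholesterol and lipid metabolism in hepatocytes, stood at 3.45, 3.81 and 3.86 on day 14 and at 4.37, 4.56 and 4.27 on day 100. Every graft of day 14 was below every graft of day 100. It made up 12.8 to 17.5% of the summed miRNA signal on day 14 and 22.1 to 24.1% on day 100. The difference was -0.69 (standard error 0.15, adjusted p = 0.00345), and -0.50 (standard error 0.25, not called) in the blocked fit.

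miR-365, at -3.26, -3.19 and -3.22 on day 14 and -2.01, -2.20 and -1.98 on day 100, had the largest difference of the list, -1.16 (standard error 0.21, adjusted p = 0.00122). miR-148a, which targets DNA methyltransferase 1, stood at -1.01, -0.57 and -0.97 on day 14 and at 0.08, 0.01 and -0.04 on day 100, a difference of -0.87 (standard error 0.16). Neither pair of groups overlapped. miR-192 and miR-194, which lie together at chr19:6264658-6264877 and are driven in liver by HNF factors, differed by -0.53 (standard error 0.13) and -0.52 (standard error 0.14). miR-194 has a further copy on chromosome 1 within the span of Iars2. miR-193 at -0.67 (standard error 0.29), miR-101b at -0.43 (standard error 0.19) and miR-101a at -0.03 (standard error 0.22) were not called, and miR-802 was detected on no array of either day.

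The brightest miRNAs exchanged rank. miR-21, which is abundant in inflamed and fibrotic tissue and lies within the span of Vmp1, stood at 4.85, 4.98 and 4.55 on day 14 and at 3.98, 3.96 and 4.11 on day 100. The days did not overlap. It took 28.2 to 33.6% of the summed signal on day 14, above miR-122, and 15.9 to 19.8% on day 100, below it. The difference was 0.78 (standard error 0.22, adjusted p = 0.00991) and 1.47, again called, in the blocked fit. It was not called when median scaling was joined to the block. miR-22, the next of the stress list, was lower, at -0.37 (standard error 0.12, adjusted p = 0.026), but it was higher by 0.65 with quantile normalization.

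In the stress list of 6, 5 were tested, 3 were higher (miR-21, miR-210 and miR-221) and miR-22 lower, with a median of 0.78. Over all 103 tested miRNAs, 33.0% were called higher and 18.4% lower. miR-210, induced by hypoxia through HIF1A, stood at -3.41, -3.89 and -4.82 on day 14 and at the floor on all arrays of day 100, where it was not detected. It was at least 1.49-fold higher (difference 1.17, standard error 0.28, adjusted p = 0.00599), with the grafts of day 14 widely spread. miR-221, detected on all 3 arrays of day 14 and 2 of day 100, differed by 0.79 (standard error 0.29). It fell to 0.40 and was not called without replicate 1 of day 100. miR-34a, induced by p53, differed by 0.10 (standard error 0.28), with a 95% interval of -0.50 to 0.71. In the blocked fit the one call of the list was miR-21, and with the percentile over all mouse miRNAs or with normexp 1 of the list was called. With no filter on detection none was called higher.

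Both erythroid miRNAs that were tested were higher on day 14, but 1 graft could remove the calls. Over all 103 tested miRNAs, 33.0% were called higher. miR-144 was detected on each array of day 14 but on 1 of day 100. With the test limited to miRNAs detected on all 6 arrays, miR-451 alone remained, called higher at 0.96. miR-451 and miR-144 come from 1 cluster at chr11:78073047-78073207 and are abundant in red cells. How much blood each graft held was not tested. miR-451 stood at 0.95, 0.78 and 1.21 on day 14 and at 0.25, -0.66 and 0.48 on day 100, and differed by 0.96 (standard error 0.34, adjusted p = 0.0319). miR-144, at -3.79, -3.30 and -2.85 and at -5.21, -4.28 and -4.27, differed by 1.27 (standard error 0.47, adjusted p = 0.0391). The days did not overlap for either. Neither was called without replicate 3 of day 14, and 1 of them was without replicate 1 or 2 of day 14, without replicate 1 or 2 of day 100 and without replicate 3 of day 8. Neither was called in the blocked fit (0.78 and 0.40), nor with the percentile over all mouse miRNAs, with quantile normalization or with no filter on detection. The third of the list, miR-486, was detected on 1 array of day 14.

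Markers of other liver cells gave few calls. miR-126-3p, the endothelial miRNA within the span of Egfl7, differed by -0.07 (standard error 0.12), with a 95% interval of -0.34 to 0.19. Of the 7 stromal miRNAs, 2 were tested. miR-10a, whose locus lies within the span of Hoxb3, was lower, at -0.85 (standard error 0.28, adjusted p = 0.0227) but turned to 0.17 in the blocked fit, and it was not called without replicate 1 of day 100 (-0.67). miR-214 differed by -0.26 (standard error 0.29). Of the 8 epithelial miRNAs only miR-203 entered the test, at -0.13 (standard error 0.12). miR-199b was lower, at -1.06 (standard error 0.30, adjusted p = 0.0108), with -3.25, -3.36 and -3.94 on day 14 and -2.33, -3.02 and -2.01 on day 100. It was at -0.08 in the blocked fit.

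Some of the largest differences belonged to miRNAs of little known function, such as miR-680, miR-690 and miR-705. miR-188-5p, within the span of Clcn5, had the largest difference of all tested miRNAs. It stood at -2.00, -2.01 and -2.44 on day 14 and was detected on no array of day 100, so it was at least 4.48-fold higher (difference 2.63, standard error 0.42, adjusted p = 0.000623). miR-680 was at least 2.83-fold, miR-301a at least 2.13-fold and miR-705 at least 2.01-fold higher, with differences of 1.90, 1.59 and 1.47, and were likewise detected on all arrays of day 14 and none of day 100. Of these 4, miR-301a, within the span of Ska2, was called in the blocked fit (1.96), but not when median scaling was joined to the block.

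miR-1224 and miR-690 varied as much among syngeneic grafts as between the days. miR-1224 stood at 1.41, 1.44 and 1.55 on day 14 and at -0.89, -0.03 and -0.71 on day 100. This is a difference of 2.01 (standard error 0.56, adjusted p = 0.00991), with the days far apart. On the syngeneic arrays, however, it ranged from 2.66 and 0.91 on the first slide to -0.31 on the second, and in the blocked fit the difference was -0.08. miR-690, at -3.37, -3.49 and -2.72 on day 14 and -4.23, -5.21 and -4.91 on day 100, differed by 1.59 (standard error 0.44, adjusted p = 0.00991), and its syngeneic values ran from -3.17 to -1.56. It was detected on each array of day 14 but not on each of day 100. miR-720, miR-494 and miR-689 had differences of -1.08, 1.23 and 0.99, without overlap of the days, and were not called, with standard errors of 0.76, 0.91 and 0.71.

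Other miRNAs called with and without the block included miR-652, miR-27a and miR-338-3p. None of these was called when median scaling was joined to the block. miR-652, within the span of Tmem164, stood at -2.66, -2.96 and -2.91 on day 14 and at -4.46, -3.83 and -3.66 on day 100. The days did not overlap and the difference was 1.14 (standard error 0.22, adjusted p = 0.00177). miR-652 was detected on each array of day 14 but not on each of day 100. miR-338-3p was not detected on day 100 and at least 1.38-fold higher on day 14. miR-27a, at 0.68 (standard error 0.17, adjusted p = 0.00645), was the single call among the 5 miRNAs of the miR-23/27/24 clusters. Its cluster mates at chr8:84208563-84208896, miR-23a and miR-24, differed by 0.31 and 0.24. In the blocked fit, miR-23a was called as well, at 0.92.

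The remaining families showed few calls. No member of the miR-29 family, which represses collagens, was called. miR-29a, miR-29b and miR-29c differed by -0.48, 0.24 and -0.10 (limma, 0 of 3 with and without the block). In the miR-30 family miR-30c alone was lower, at -0.66 (standard error 0.18, adjusted p = 0.00868), and 4 of 5 were not called. miR-26b, within the span of Ctdsp1, was lower, at -0.88 (standard error 0.18, adjusted p = 0.00267), with -1.42, -1.25 and -1.70 on day 14 and -0.52, -0.75 and -0.47 on day 100. miR-26a, of the same seed, differed by -0.24 (standard error 0.16). The remaining called miRNAs were miR-28, miR-378, miR-135a* and miR-140*, higher by 0.62 to 1.17. All 4 were no longer called without replicate 1 of day 100, and the days overlapped for miR-140*. All 4 were detected on each array of day 14 but not on each of day 100, and miR-135a* on none of day 100.

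Of the 10 miRNAs that the study selected on these arrays, 6 were called, 5 higher and miR-148a lower. Among all 103 tested miRNAs, 51.5% were called. The study chose its 10 against syngeneic grafts of day 5, not for day 14 against day 100. Since the 10 were chosen on these samples, they are no independent evidence. Over the 74 tested miRNAs with a sequence, the difference had a Pearson correlation of 0.27 with the GC content of the mature strand, and of 0.09 in the blocked fit. This is a description over miRNAs, which share arrays and are not independent.

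The other groups place these levels. miR-342-3p had means of -5.06 (SD 0.27, n = 3) in syngeneic grafts, -2.76 and -1.72 in allografts of days 5 and 8, -1.01 on day 14 and -3.38 on day 100. On the second slide alone, where day 5 and day 100 sit together, the 3 allografts of day 5, at -3.10, -2.73 and -2.43, all lay above the 3 of day 100. miR-122 was lowest on day 14, at 3.71 (SD 0.22), against 4.33 and 4.34 in allografts of days 5 and 8, 4.40 (SD 0.15) on day 100 and 4.76 (SD 0.11) in syngeneic grafts. let-7c was highest on day 100, at 0.22 (SD 0.17), and its other 4 means ran from -0.87 on day 14 to -0.38 in allografts of day 8.

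**Figure D5:**
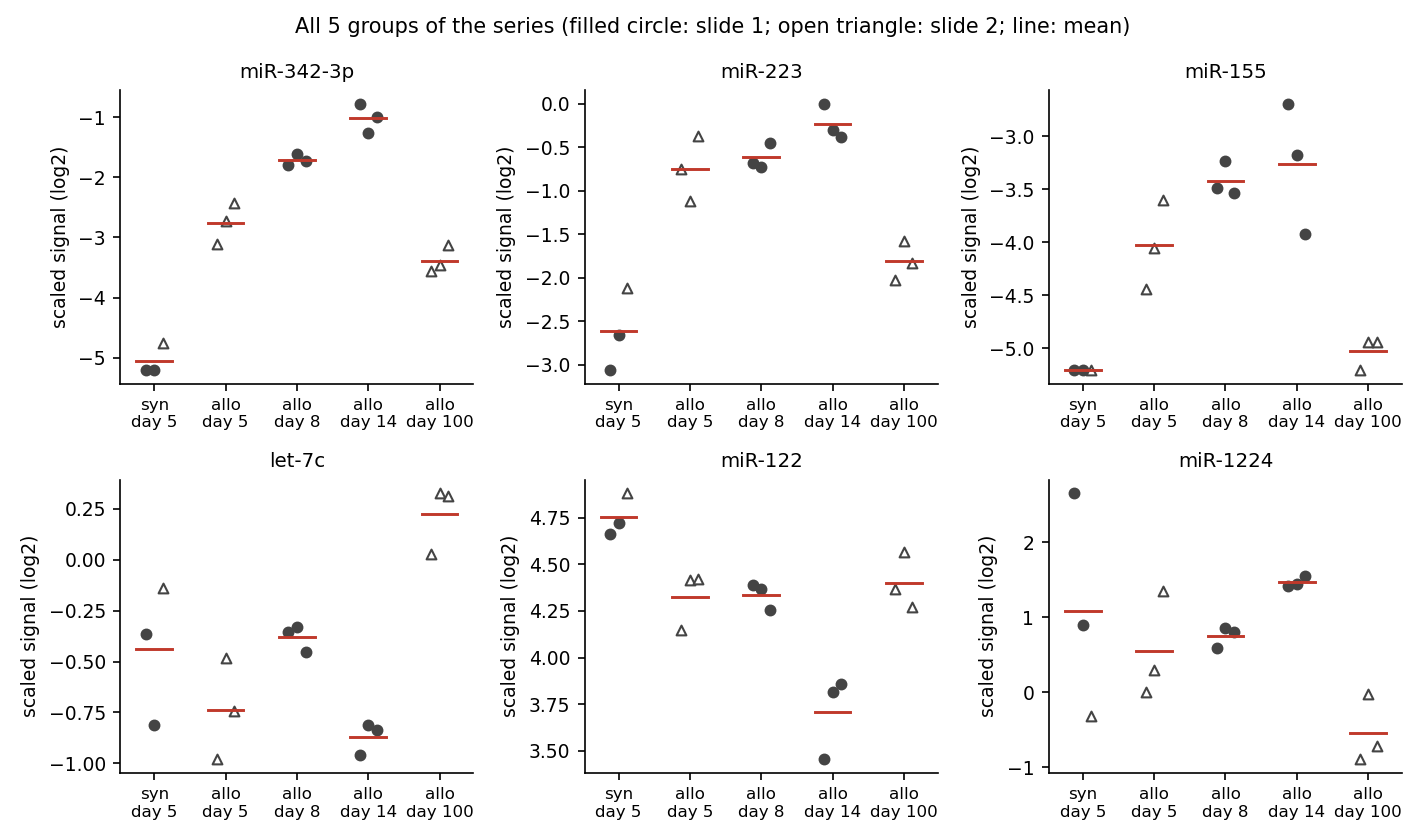
Scaled signal (y axis, log2) of 6 miRNAs in the 5 groups of the series, 1 point per array, filled circles for the first slide, open triangles for the second, lines for the means. miR-342-3p, miR-223 and miR-155 have their highest mean on day 14, miR-122 its lowest, and miR-1224 spreads over the syngeneic arrays as widely as between day 14 and day 100.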

How the data were processed

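RNA of 15 liver grafts (100 ng each) was labeled with Cy3 and hybridized to 1-color Agilent mouse miRNA arrays. The authors deposited, for each array, the spot intensity and the flag values of Feature Extraction 9.5.1.1 (version per the file headers): background-subtracted, linear and not normalized between arrays. The deposited table of the whole series was not used. Spots of a probe were averaged, leaving out controls and outliers, and the 1 to 4 probes of a miRNA were summed. Detection required a share of 0.5 or more of a probe's spots to be well above background. No spot was saturated. Intensities were divided by the 75th percentile, per array, of the 52 miRNAs detected on all 15 arrays (750 to 1018 intensity units on day 14, 516 to 1002 on day 100), raised to a floor of 0.0270, which is the median of the arrays' lowest detected values, and put on the log2 scale. At the floor lay 10.7% of the tested values of the 6 arrays, so fold changes of dim miRNAs depend on the floor. They can be understated where a value was raised to the floor. For replicate 1 of day 100 the lowest detected scaled value was 0.0709, above the floor. Undetected values of that array can thus lie under its detection limit and enlarge a rise. A fold written as "at least" compares day 14 with the detection limit of the day 100 arrays. The number of arrays limits the precision.

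Differences were tested with limma 3.58.1 in R 4.3.3, with 1 mean per group over the 15 arrays, which share 1 estimate of the spread, and Benjamini-Hochberg adjustment over the 103 tested miRNAs. Arrays of a group shared 0 identical miRNA signals. Named are the 10 largest rises and 10 largest falls that were called without overlap, and every miRNA called with the slide as a block. Also named are most tested members of the lists, and miRNAs detected on every array of one day and none of the other. The lists are of leukocyte, erythroid, hepatocyte, endothelial, stromal, epithelial and other-tissue miRNAs, miRNA families, stress miRNAs and the study's 10. Members and lists were chosen with earlier results of these data known. Alternatives changed the scaling, background, probe summary, filter, floor, test, slide, replicate block and the arrays used. The background offset of replicate 1 of day 100 was seen in the data, so 3 alternatives were chosen after seeing the data. Mature sequences and loci came from RefSeq tables of GRCm38.p6, in which gene spans carry no strand or exons, and old array names were matched to RefSeq names by hand.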

Additional observations from a re-analysis of the deposited data

How the results depend on the processing

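The 53 calls (34 higher, 19 lower) were recomputed under 37 alternatives. By scaling, the counts of all, higher and lower calls were 33, 15 and 18 with the percentile over all mouse miRNAs, 39, 21 and 18 with quantile normalization, 34, 32 and 2 with no scaling and 59, 40 and 19 with median scaling, while the median difference moved from 0.10 to -0.09, 0.01, 0.41 and 0.25. The share of calls that were higher was 64.2%, and 45.5%, 53.8%, 94.1% and 67.8% with these. Normexp background correction gave 28 calls (10 higher), the brightest probe in place of the sum 41 calls (19 higher, 22 lower), so that most were lower, and no filter on detection 21 calls (10 higher, 11 lower). With the test limited to miRNAs detected on all 15 arrays 26 were called (10 higher), and to those on all 6 arrays 27 (10 higher), fewer miRNAs being tested. The slide as a fixed block gave 20 higher and 0 lower, as a random block 18 higher and 2 lower (20 in all), as a fixed block without the noisier array of day 100 17 higher and 0 lower, and as a fixed block with median scaling 5 calls, 4 higher and 1 lower. The last 2 were chosen after seeing the data, as was setting each array's background offset to 0 (50 calls). Leaving out each array in turn gave 39 to 57 calls, 21 to 37 higher and 17 to 21 lower.

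Of 56 miRNAs named and recomputed, 46 never changed sign. miR-185 reversed with the percentile over all mouse miRNAs (-0.15), quantile normalization (-0.00781) and normexp (-0.098), and miR-22 with quantile normalization (0.65). With normexp, miR-17* (-0.049), miR-28 (-0.057), miR-25 (-0.035), miR-221 (-0.066), miR-93 (-0.019) and miR-338-3p (-0.000787) reversed. With the slide as a block miR-10a (0.17) and miR-1224 (-0.081) reversed, without the noisier array too (0.35 and -0.26), and miR-1224 with median scaling and the block (-0.48). The cause was not tested.

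The replicate numbers did not pair the grafts: deviations of same-numbered arrays from their group means correlated at -0.031, 0.13 and -0.043 over the 3 numbers. With the replicate block 50 miRNAs were called, 31 higher and 19 lower. The methods' t-test called 52 without adjustment and 42 after it. Dim miRNAs near background, and the noise of 1 array of day 100, limit what 3 grafts a day can show, and slide and day were separated by the syngeneic arrays alone.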

Other observations

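Of the 10 viral miRNAs on the array, mghv-miR-M1-2 was the 1 detected on any array. It was detected on 14 of the 15 arrays, on 3 of day 14, 2 of day 100 and 3 of the syngeneic grafts.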
